A study of Homo sapiens with 36 samples.

Results

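The 9 genes described here, of 57820 in the deposited count table, encode enzymes of folate metabolism and glycine cleavage. They were chosen as a fixed list from both cell compartments and found by matching Ensembl identifiers to symbols, and all 9 were in the table. SHMT1 and MTHFD1 encode cytosolic enzymes. SHMT2, MTHFD2, MTHFD1L, MTHFD2L and ALDH1L2 encode mitochondrial folate enzymes, and GLDC and GCSH encode parts of the glycine cleavage complex, which is also mitochondrial. The data are RNA-seq counts from 36 libraries of A2780, a line of human ovarian cancer cells, with 3 libraries in each of 12 conditions. The lines were the sensitive parental cells (wt), an isogenic line made resistant by long exposure of the parental cells to cisplatin (cis), and cis SSP cells, which grew out of the cis cells after they were kept without serine and glycine. Each line was grown in complete medium or in medium that lacked both amino acids (-SG). For deprivation experiments the study used a homemade medium with dialysed serum, made with or without them. Whether the complete medium of these libraries was that one is not stated, so base and serum may also differ between the media. Each medium was used alone or with carboplatin (carbo), a platinum drug. The labels give its dose as 6 M, where a unit prefix was probably lost, since the study states 6 µM for its tracer experiments. Each resistant line is a single derivative of a single cell line, and the 3 libraries of a condition are called technical replicates in the legends of the study, so the p-values below measure the spread between those libraries and not between independent cultures. Many comparisons below share a control condition, so they are not independent of each other.

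Serine is the main donor of single carbon units in proliferating cells. The serine hydroxymethyltransferases move a carbon from serine to tetrahydrofolate and release glycine, in the cytosol through SHMT1 and in mitochondria through SHMT2. In mitochondria the carbon is oxidized by MTHFD2 or MTHFD2L and released as formate by MTHFD1L, and formate that reaches the cytosol is put back on folate by MTHFD1 for purine and thymidylate synthesis. ALDH1L2 instead oxidizes formyl-tetrahydrofolate to carbon dioxide and yields NADPH. GLDC, the glycine decarboxylase, and GCSH, the small lipoylated carrier of the complex, pass the carbon of glycine to mitochondrial folate.

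All 9 genes are annotated as protein-coding. On GRCh37, SHMT1 (ENSG00000176974) lies on the minus strand of chromosome 17 from 18231174 to 18266877 and MTHFD1 (ENSG00000100714) on the plus strand of chromosome 14 from 64854749 to 64930175. SHMT2 (ENSG00000182199) lies on chromosome 12 from 57623356 to 57628718, MTHFD2 (ENSG00000065911) on chromosome 2 from 74413299 to 74444692, MTHFD1L (ENSG00000120254) on chromosome 6 from 151186815 to 151423023 and MTHFD2L (ENSG00000163738) on chromosome 4 from 74979891 to 75168816, all on the plus strand. ALDH1L2 (ENSG00000136010) on chromosome 12 from 105413562 to 105501421, GLDC (ENSG00000178445) on chromosome 9 from 6532467 to 6645729 and GCSH (ENSG00000140905) on chromosome 16 from 81115550 to 81130000 are on the minus strand.

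The bases before the start site are shown for 4 members. SHMT1 and MTHFD1 were chosen because they rose and fell together most closely of any pair of members across the conditions (Pearson's r = 0.94). MTHFD2 is the mitochondrial counterpart of MTHFD1, and GLDC was higher under carboplatin in wt cells where 7 other members were lower. Each run holds the 250 bases upstream of the start site, 5′ to 3′ on the strand of the gene, from RefSeq on GRCh38.p14, at chr17:18363551-18363800 for SHMT1 and chr9:6645730-6645979 for GLDC, both on the minus strand, and at chr14:64388103-64388352 for MTHFD1 and chr2:74198365-74198614 for MTHFD2, both on the plus strand. The sequences were searched on both strands for TGATGNAA, a core shared by binding sites of ATF4 with C/EBP proteins, and for CACGTG, the palindromic E-box bound by MYC and other factors, and matches are in capitals.
SHMT1: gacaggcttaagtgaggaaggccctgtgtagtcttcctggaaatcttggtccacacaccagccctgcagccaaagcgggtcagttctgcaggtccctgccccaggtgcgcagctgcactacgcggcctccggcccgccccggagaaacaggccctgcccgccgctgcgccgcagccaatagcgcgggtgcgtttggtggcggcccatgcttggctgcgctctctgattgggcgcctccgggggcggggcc
MTHFD1: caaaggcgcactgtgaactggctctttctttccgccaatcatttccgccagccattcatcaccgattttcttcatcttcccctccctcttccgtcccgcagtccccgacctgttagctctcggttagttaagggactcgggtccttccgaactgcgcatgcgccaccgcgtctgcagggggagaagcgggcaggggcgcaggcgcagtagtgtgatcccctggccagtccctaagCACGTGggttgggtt
MTHFD2: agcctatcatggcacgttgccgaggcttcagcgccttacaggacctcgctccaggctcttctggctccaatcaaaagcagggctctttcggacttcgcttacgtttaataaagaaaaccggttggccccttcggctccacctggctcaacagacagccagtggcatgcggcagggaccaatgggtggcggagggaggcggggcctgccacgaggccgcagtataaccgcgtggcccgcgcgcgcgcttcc
GLDC: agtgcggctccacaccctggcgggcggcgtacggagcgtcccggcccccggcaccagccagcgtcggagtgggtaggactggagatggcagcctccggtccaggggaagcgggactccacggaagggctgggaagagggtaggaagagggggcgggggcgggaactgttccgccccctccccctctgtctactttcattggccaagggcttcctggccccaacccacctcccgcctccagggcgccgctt

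MTHFD1 held 1 CACGTG that began 15 bases before its start and read the same on both strands, and neither motif was in the windows of SHMT1, MTHFD2, GLDC, GCSH or MTHFD2L. MTHFD1L had 4 annotated windows, and 2 of them, which overlap each other, held both motifs at the same genomic sites. The motifs did not overlap, and TGATGNAA lay 129 or 90 bases before the start of its window's transcript, on the plus strand. Of 35116 windows of this length over all genes, 3.14% held TGATGNAA and 6.34% held CACGTG. No window was matched for SHMT2 and ALDH1L2.

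The libraries held 13074937 to 20441582 counts on genes. Libraries 25 (cis SSP) and 32 (cis SSP -SG) stood apart, because counts in them declined with gene length relative to the other libraries. The slopes were -0.38 and -0.39 log2 units per doubling of length, taken as the merged exons of all transcripts. Library 11 (wt -SG carbo) had a slope of -0.14, and the other 33 stayed within 0.032 of 0. In libraries 23 and 24 (cis -SG carbo), 17.9% and 14.9% of the counts were on no feature, against 4.21% to 9.31% in the others. The A2780 cells lacked several defining Müllerian markers: PAX8 reached 0.631 CPM (counts scaled to library size after TMM normalization), MUC16 0.177 and KRT7 0.059, while PAX2 had a median of 174 in wt libraries and 0.0565 in the cis and cis SSP libraries. The 8 epithelial and Müllerian markers together summed to 166 to 208 in wt, 16.4 to 46.1 in cis and 9.65 to 19.8 in cis SSP libraries. PAX2 made up most of the wt sum. KRT18 went the other way, with medians of 2.77 in wt and 16.5 in the pooled cis and cis SSP libraries. WT1 did too (0 and 0.542), while EPCAM (1.14 and 0.621) and KRT8 (2.87 and 1.02) were lower there. All 3 leukocyte markers and both endothelial markers in the table stayed under 1 CPM in every library, with CD3E at 0 throughout. The 4 fibroblast markers, COL1A1, COL1A2, DCN and PDGFRB, summed to 532 to 1802 CPM in wt, 2.39 to 5.50 in cis and 32.6 to 48.9 in cis SSP libraries. DCN went against the sum, with medians of 0.383 in wt and 10.2 in the pooled cis and cis SSP libraries. COL1A1 (509.5 and 6.4), COL1A2 (545.6 and 0.221) and PDGFRB (12.4 and 0.79) were lower there. The fibroblast markers thus moved with every comparison between lines below, and their part in those results was not tested.

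The length trend reached the members. ALDH1L2 has the longest canonical transcript of the 9, 7428 bases, and was at 39.2% of the mean of the other libraries of its condition in library 25 and at 35.4% in library 32. MTHFD1 (3154 bases) was at 80.1% and 80.9%. The shortest transcripts lay above, with SHMT2 (2157 bases) at 139.7% and 130.3% and GCSH (1560 bases) at 137.1% and 165.3%, and so did SHMT1 (2527 bases) at 121.2% and 127.2% and MTHFD2L (2355 bases) at 125.4% and 113.8%. MTHFD1L (3451 bases) went against the order of canonical length, since it is longer than MTHFD1 and lay at 124.9% and 119.3%. By merged exons, the length used for the slopes, MTHFD1L is shorter, at 4891 bases against 17357 for MTHFD1. By that length MTHFD2L (9819 bases) and MTHFD2 (11443 bases) are longer than ALDH1L2 (9493 bases) and lay above it. MTHFD2 (4403 bases) and GLDC (3843 bases) differed least, at 104.8% and 104.6% for MTHFD2 and 98.5% and 91.6% for GLDC. The tests of members that use library 25 or 32 are therefore given with and without it, while the compartment ratios and the other folate genes are given with all libraries in.

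**Figure D1:**
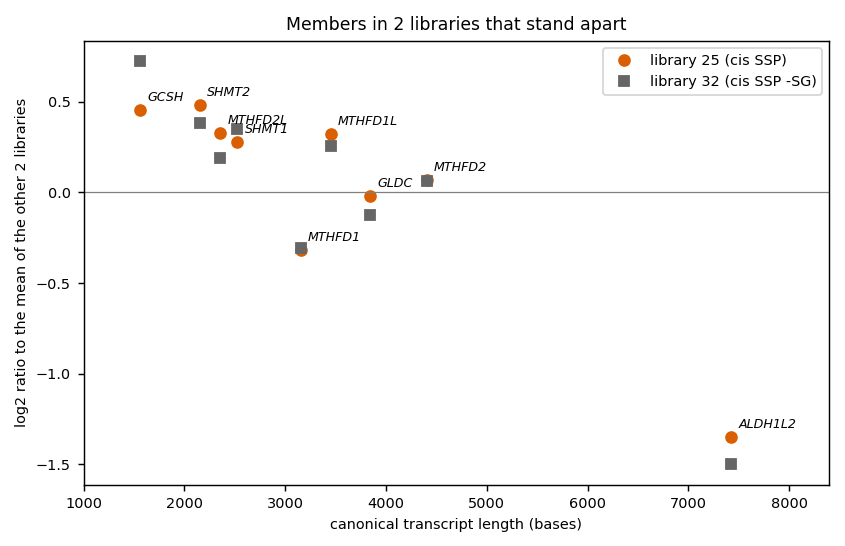
Each point is a member in library 25 (circles) or library 32 (squares), placed by its canonical transcript length in bases and by the log2 ratio of its level to the mean of the other libraries of that condition. ALDH1L2 lies lowest in both libraries, at log2 ratios of -1.35 and -1.50.

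Levels are given in CPM, as the mean ± SD of 3 libraries, and levels of different genes are compared only per kilobase of canonical transcript. By the median over the 12 conditions, SHMT2 was highest at 136 CPM per kb, before MTHFD2 at 88.4 and MTHFD1 at 58.3. MTHFD1L followed at 25.5, GLDC at 19.3, ALDH1L2 at 18.5 and SHMT1 at 17.9. MTHFD2L at 2.77 and GCSH at 1.35 were far below, with 51 to 168 and 20 to 62 counts per library, so their fold changes were the least precise. With the merged exons of all transcripts as the length, SHMT2 and MTHFD2 stayed first and second, while MTHFD1 moved from rank 3 to rank 5.

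SHMT1, the cytosolic hydroxymethyltransferase, had the widest range of the 9, with a mean 6.06 times higher in cis SSP than in wt -SG carbo. Its level was 70.0 ± 8.2 CPM in cis SSP, 63.9 ± 9.7 in cis SSP -SG and 54.8 ± 1.1 in cis. Next in order were 50.6 ± 1.5 CPM in cis SSP -SG carbo, 46.8 ± 0.5 in wt, 45.3 ± 1.0 in wt -SG, 45.2 ± 0.6 in cis SSP carbo and 45.0 ± 3.5 in cis carbo. The lowest levels were 29.9 ± 0.8 in cis -SG, 25.9 ± 0.5 in cis -SG carbo, 13.1 ± 0.2 in wt carbo and 11.5 ± 0.3 in wt -SG carbo. Neighbours in this order overlapped among the 4 conditions from wt to cis carbo and between the first and second, and not elsewhere.

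MTHFD1, the cytosolic enzyme with synthetase, cyclohydrolase and dehydrogenase activities, ranged 2.41-fold, from 243 ± 7 CPM in cis to 101 ± 6 in wt -SG carbo. After cis came cis SSP -SG at 232 ± 28, cis SSP at 225 ± 28 and cis carbo at 202 ± 4, which overlapped. Then cis -SG was at 190.1 ± 6.0, wt at 187 ± 6, cis SSP -SG carbo at 181 ± 4, cis SSP carbo at 178 ± 4 and wt -SG at 174 ± 3, again with overlap between neighbours. Below them lay cis -SG carbo at 156 ± 3 and wt carbo at 105.1 ± 0.4, and only the latter overlapped with wt -SG carbo.

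SHMT2, the mitochondrial hydroxymethyltransferase, was highest in cis SSP -SG at 446 ± 71 CPM, or 405 without library 32, and the lowest library of that condition still lay above all others of wt -SG, the next at 346 ± 7. Next were cis at 331 ± 1, cis carbo at 315 ± 14, cis SSP at 309 ± 63, wt at 295 ± 2 and cis SSP -SG carbo at 291 ± 5, of which the last 4 overlapped from neighbour to neighbour. Cis SSP carbo was at 249.97 ± 1.79, cis -SG at 229 ± 5 and cis -SG carbo at 213 ± 6. The lowest levels, 195 ± 6 in wt -SG carbo and 195 ± 6 in wt carbo, overlapped.

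MTHFD2, the NAD-dependent mitochondrial dehydrogenase and cyclohydrolase, was also highest in cis SSP -SG, at 560.4 ± 14.9 CPM. It lay at 446 ± 3 in cis -SG, 426 ± 11 in cis SSP -SG carbo, 421 ± 7 in cis -SG carbo, 413 ± 5 in cis carbo and 397 ± 5 in cis, and of these the 3 with carboplatin overlapped. The wt -SG libraries were at 382 ± 1 and those of cis SSP carbo at 311 ± 13. In complete medium wt and cis SSP overlapped, at 299 ± 5 and 289 ± 9, and wt -SG carbo and wt carbo overlapped at 199 ± 2 and 199 ± 1.

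MTHFD1L, the mitochondrial formate ligase, and ALDH1L2 shared their highest condition, cis -SG. MTHFD1L was at 145 ± 3 CPM there, at 123 ± 3 in cis -SG carbo and at 104 ± 11 in cis SSP -SG. Its other means fell from 99.6 ± 6.3 in cis to 64.2 ± 3.6 in wt -SG carbo, and 5 of the 8 steps between neighbours in that stretch overlapped. ALDH1L2 was at 300.3 ± 10.1 CPM in cis -SG and at 297 ± 2 in cis -SG carbo, which overlapped. It was at 203 ± 96 in cis SSP -SG, where library 32 had 91.3 against 255 and 262 in the others, and at 181 ± 2 in wt -SG. In complete medium it was at 149 ± 3 in wt, 141 ± 3 in cis and 90.4 ± 39.8 in cis SSP, where library 25 had 44.5 against 112 and 114. Its lowest levels were 71.8 ± 2.6 in cis SSP carbo and 71.0 ± 7.8 in wt -SG carbo.

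GLDC had a different order from the folate enzymes. It was highest in cis carbo at 112 ± 1 CPM and cis at 106 ± 2, then lay at 88.6 ± 0.7 in cis SSP carbo, 85.2 ± 1.6 in cis SSP -SG carbo, 80.8 ± 4.6 in cis -SG carbo and 77.2 ± 1.4 in cis -SG. The wt cells with carboplatin came next, at 70.8 ± 1.9 in complete medium and 60.1 ± 2.6 without serine and glycine. The lowest levels were 46.7 ± 2.6 in cis SSP -SG, 46.6 ± 0.8 in cis SSP, 24.8 ± 1.6 in wt and 19.7 ± 0.4 in wt -SG. MTHFD2L ranged from 3.95 ± 0.05 CPM in wt -SG to 8.88 ± 1.22 in cis SSP and GCSH from 1.49 ± 0.25 in wt carbo to 3.37 ± 0.70 in cis SSP, and for both of them every one of the 11 pairs of neighbours overlapped. In bulk RNA, fewer cells that express a gene and less RNA per cell cannot be told apart.

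**Figure D2:**
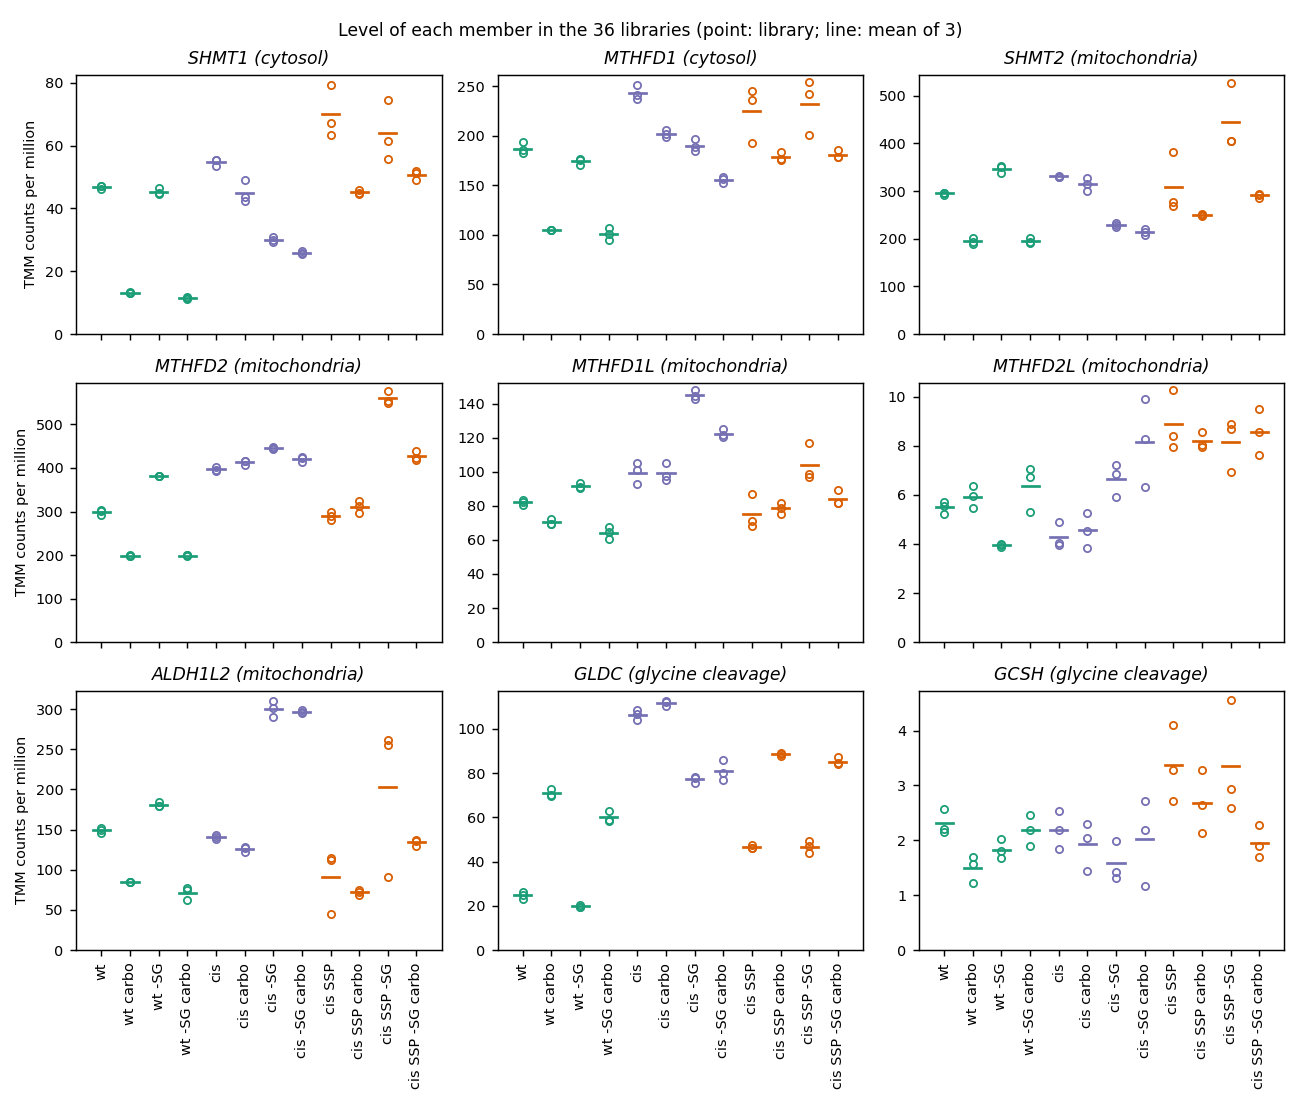
Each panel plots 1 member's level in CPM for the 12 conditions, with a point for each library and a line at the mean of 3, in green for wt, purple for cis and orange for cis SSP. GLDC is lowest in wt and wt -SG, SHMT1 is lowest in wt carbo and wt -SG carbo, and single points stand apart for ALDH1L2 in cis SSP and cis SSP -SG.

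The first comparison asked how resistant cells differed from sensitive ones in complete medium. Of the 9 members, 6 were higher and 2 lower in cis than in wt by edgeR's quasi-likelihood test at a Benjamini-Hochberg adjusted p under 0.05, beside 39.4% of all genes tested that were higher and 39.1% that were lower. The difference was large for GLDC alone. Its libraries had 109, 107 and 104 CPM in cis and 23.2, 24.7 and 26.4 in wt, so the groups lay far apart, and the log2 fold change was 2.08 ± 0.05 (SE; adjusted p = 1.60e-36). MTHFD2 was higher by 0.39 ± 0.02 on the log2 scale, MTHFD1 by 0.36 ± 0.03, MTHFD1L by 0.26 ± 0.04, SHMT1 by 0.21 ± 0.04 and SHMT2 by 0.15 ± 0.02. ALDH1L2 was lower, with a log2 fold change of -0.10 ± 0.03 (adjusted p = 0.0025), as was MTHFD2L with -0.38 ± 0.13 (adjusted p = 0.0082), while GCSH at -0.11 ± 0.19 did not pass (adjusted p = 0.61). The median over the 9 members was 0.21, against -0.0041 over all genes tested. When a log2 fold change of 1 or more in size was also required, GLDC was the only member called. MTHFD2L did not pass with DESeq2 (adjusted p = 0.105) or without library 14 of cis (adjusted p = 0.0505), and SHMT2 and ALDH1L2 did not pass in a single fit over all 36 libraries.

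Cis SSP cells were compared with the cis cells from which they grew, in the same medium. In complete medium 1 member was higher and 3 were lower in cis SSP (15.8% of all genes higher and 13.3% lower). GLDC had 46.1, 46.2 and 47.5 CPM in cis SSP, less than every cis library, with a log2 fold change of -1.21 ± 0.09 (adjusted p = 3.28e-04). MTHFD2L was higher by 1.02 ± 0.15 (adjusted p = 0.0037), and its libraries had 10.3, 7.96 and 8.41 CPM against 4.89, 3.95 and 4.06. MTHFD2 was lower, at -0.48 ± 0.09 (adjusted p = 0.010), and so was MTHFD1L, at -0.43 ± 0.11 (adjusted p = 0.034). With the trend over transcript length removed, MTHFD2 was at -0.24 and did not pass (adjusted p = 0.251), while SHMT1 was at 0.43 and passed (adjusted p = 0.0466). Without library 25, 8 members were called, 3 higher and 5 lower, beside 32.9% and 32.5% of all genes, because SHMT1 (0.27) and GCSH (0.48) were then higher and SHMT2 (-0.26) and ALDH1L2 (-0.30) lower. ALDH1L2 had been at -0.65 ± 0.36 with library 25 in (adjusted p = 0.22). Leaving out any 1 of the 3 cis libraries instead left 2 members called, GLDC and MTHFD2L, and MTHFD1L also did not pass without library 26 or 27.

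The lines were also compared with each other without serine and glycine. Between cis -SG and wt -SG, 6 members were higher and 2 lower in cis (40.8% of all genes higher and 40.3% lower). GLDC was again higher, by 2.01 ± 0.05 (adjusted p = 3.64e-19), and 3 mitochondrial folate enzymes were higher by similar amounts: MTHFD2L by 0.80 ± 0.12, ALDH1L2 by 0.77 ± 0.03 and MTHFD1L by 0.71 ± 0.03. Both hydroxymethyltransferases were lower in cis -SG, SHMT1 with a log2 fold change of -0.55 ± 0.05 (adjusted p = 1.10e-09) and SHMT2 with -0.55 ± 0.03 (adjusted p = 2.14e-13). MTHFD2 at 0.27 ± 0.02 and MTHFD1 at 0.17 ± 0.03 were slightly higher. Between cis SSP -SG and cis -SG, 3 members were higher and 2 lower (21.6% of all genes higher and 23.2% lower). SHMT1 had 61.5, 74.5 and 55.6 CPM in cis SSP -SG against 30.7, 29.8 and 29.2, and was higher by 1.02 ± 0.12 (adjusted p = 0.0012). SHMT2 was higher by 0.89 ± 0.12 (adjusted p = 0.0022), and GCSH by 0.999 ± 0.28 (adjusted p = 0.027) on 1.32 to 4.56 CPM, though not without library 19 or 21 of cis -SG. GLDC was lower at -0.79 ± 0.10 and MTHFD1L at -0.55 ± 0.10. Without library 32, 5 members were higher and 3 lower (37% and 38.5% of all genes): SHMT1 stayed higher by 0.92 and SHMT2 by 0.78, MTHFD1 at 0.33 and MTHFD2 at 0.26 passed as well, and ALDH1L2 was called lower at -0.27.

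**Figure D3:**
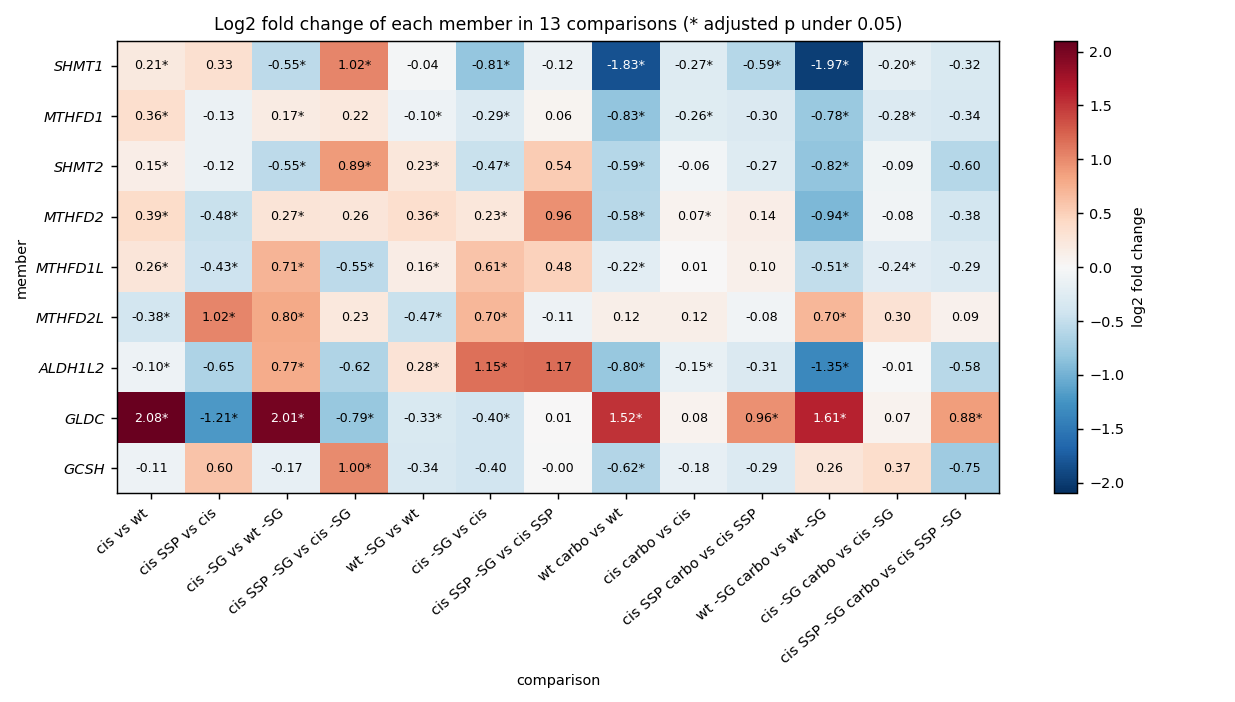
Each cell gives the log2 fold change of a member (rows) in a comparison of 2 conditions (columns), from blue for lower to red for higher in the condition named first, with an asterisk at an adjusted p under 0.05. GLDC has the darkest red, 2.08 in cis against wt, and SHMT1 the darkest blue, -1.97 in wt -SG carbo against wt -SG.

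The next comparisons set medium without serine and glycine against complete medium within a line. For cis SSP cells, which had grown out without both amino acids, this is not a first removal. In wt cells 4 members rose and 3 fell (24.1% of all genes higher and 25.1% lower), and every change was under 0.5 on the log2 scale. All 4 that rose are mitochondrial, but so are 7 of the 9 members and 2 of the 3 that fell. MTHFD2 had 382, 381 and 381 CPM without serine and glycine against 292, 302 and 301 with them, and rose by 0.36 ± 0.02 (adjusted p = 1.72e-10). ALDH1L2 rose by 0.28 ± 0.03 (adjusted p = 6.77e-08), SHMT2 by 0.23 ± 0.02 (adjusted p = 9.91e-08) and MTHFD1L by 0.16 ± 0.03 (adjusted p = 7.23e-04). MTHFD2L changed by -0.47 ± 0.12, GLDC by -0.33 ± 0.06 and MTHFD1 by -0.10 ± 0.03, all lower. SHMT1, at -0.04 ± 0.04, overlapped between the media. In a single fit over all 36 libraries 3 members were called in place of 7, and SHMT2, MTHFD1L, ALDH1L2 and MTHFD1 were not among them.

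In cis cells 4 members, all mitochondrial folate enzymes, rose, while both hydroxymethyltransferases, MTHFD1 and GLDC fell (37.6% of all genes higher and 37.4% lower). Of the 4 that fell, 2 are also mitochondrial, SHMT2 and GLDC. ALDH1L2 had 310, 301 and 290 CPM in cis -SG and 144, 138 and 141 in cis, with no overlap, and rose by 1.15 ± 0.03 (adjusted p = 3.29e-33). MTHFD2L rose by 0.70 ± 0.13 (adjusted p = 3.92e-06), MTHFD1L by 0.61 ± 0.04 (adjusted p = 4.07e-18) and MTHFD2 by 0.23 ± 0.03 (adjusted p = 1.99e-10). SHMT1 had 30.7, 29.8 and 29.2 CPM in cis -SG and 55.5, 53.5 and 55.4 in cis, and its log2 fold change was -0.81 ± 0.05 (adjusted p = 1.63e-19). SHMT2 had 228, 224 and 234 CPM against 330, 332 and 330, a change of -0.47 ± 0.03 (adjusted p = 1.12e-19). The fall was -0.40 ± 0.04 for GLDC and -0.29 ± 0.03 for MTHFD1. GCSH was at -0.40 ± 0.21 (adjusted p = 0.084), and its libraries overlapped, and it passed without library 20 or 15.

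The difference between the responses of cis and wt cells was tested as the interaction of line and medium over 4 conditions. It passed for 7 members, 3 higher and 4 lower in cis (27.1% of all genes higher and 26.9% lower). The response of MTHFD2L was higher in cis by 1.19 ± 0.18 (adjusted p = 4.54e-07), that of ALDH1L2 by 0.88 ± 0.04 (adjusted p = 5.50e-20) and that of MTHFD1L by 0.46 ± 0.05 (adjusted p = 1.34e-09). MTHFD2L had gone in opposite directions, lower in wt -SG than in wt and higher in cis -SG than in cis. SHMT2 had the reverse pattern, with an interaction of -0.69 ± 0.04 (adjusted p = 1.23e-18). For SHMT1, which passed in cis and not in wt, it was -0.75 ± 0.06 (adjusted p = 7.63e-13). For MTHFD1 the interaction was -0.18 ± 0.04 and for MTHFD2 -0.11 ± 0.03. GLDC at -0.06 ± 0.07 did not pass (adjusted p = 0.51). In the single fit over 36 libraries the interactions of ALDH1L2 (adjusted p = 0.077) and MTHFD1 (adjusted p = 0.063) did not pass.

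In cis SSP cells no member passed between the media with all 6 libraries by edgeR's quasi-likelihood test (0.0218% of all genes, which is 3, were higher and 0% lower), although 3 members had an unadjusted p under 0.05, among 907 such genes. DESeq2 called 1 member, MTHFD2, among 103 genes. MTHFD2 had 550, 577 and 554 CPM in cis SSP -SG and 298, 280.3 and 289 in cis SSP, so that every deprived library was above every other one, at a log2 fold change of 0.96 ± 0.11 (adjusted p = 0.12). Libraries 25 and 32 both enter here, 1 in each condition. Without them 4 members rose and 1 fell, beside 18.9% and 17% of all genes: ALDH1L2 by 1.2 (adjusted p = 6.52e-21), MTHFD2 by 0.97 (adjusted p = 4.90e-21), SHMT2 by 0.58 (adjusted p = 1.11e-15) and MTHFD1L by 0.51 (adjusted p = 4.99e-10), and SHMT1 was lower at -0.15 (adjusted p = 0.035). With all libraries in, the corresponding log2 fold changes were 1.17 ± 0.55, 0.96 ± 0.11, 0.54 ± 0.18, 0.48 ± 0.14 and -0.12 ± 0.15. GLDC, at 0.01 ± 0.12 with them and 0.04 without, overlapped between the media.

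The interaction between cis SSP and cis cells passed for 4 members higher and 1 lower in cis SSP (6.86% of all genes higher and 10.3% lower). The lines met the medium with unlike histories, since cis SSP cells had grown out in its absence of serine and glycine. The response of SHMT2 was higher by 1.02 ± 0.20 (adjusted p = 0.0067), that of MTHFD2 by 0.74 ± 0.10 (adjusted p = 7.85e-04), that of SHMT1 by 0.70 ± 0.16 (adjusted p = 0.014) and that of GLDC by 0.42 ± 0.10 (adjusted p = 0.015). For MTHFD2L it was -0.79 ± 0.21 (adjusted p = 0.026), which was lost with 5 of the 12 libraries left out in turn. The response of ALDH1L2 differed by 0.03 ± 0.56, and by 0.05 without libraries 25 and 32, where 5 members were higher and 1 lower (28.8% and 26.6% of all genes) and MTHFD1 passed too, at 0.35. Total counts without TMM moved the median of all genes by -0.108 in this interaction, and GLDC did not pass there (adjusted p = 0.10) or without a filter (adjusted p = 0.19).

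**Figure D4:**
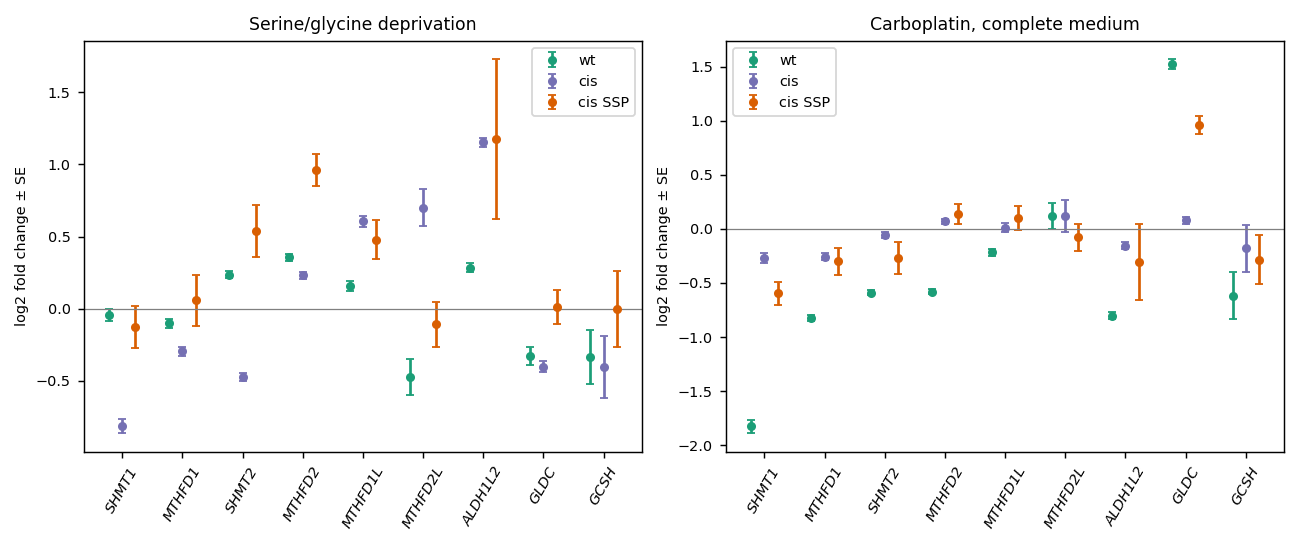
Points are log2 fold changes of each member with SE bars, for serine/glycine deprivation (left) and carboplatin in complete medium (right), in wt (green), cis (purple) and cis SSP (orange) cells. SHMT1 and SHMT2 lie below 0 after deprivation in cis cells, at -0.81 and -0.47, and the wt points for SHMT1 and GLDC after carboplatin lie farthest from 0, at -1.83 and 1.52.

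Carboplatin in complete medium was followed in each line. In wt cells 7 members fell and 1 rose (38.9% of all genes higher and 39.0% lower). The largest fall was that of SHMT1, which had 12.9, 13.2 and 13.3 CPM with carboplatin and 47.1, 46.2 and 47.1 without it, a log2 fold change of -1.83 ± 0.06 (adjusted p = 3.01e-136). MTHFD1 was at -0.83 ± 0.03, ALDH1L2 at -0.80 ± 0.03, GCSH at -0.62 ± 0.21, SHMT2 at -0.59 ± 0.02, MTHFD2 at -0.58 ± 0.02 and MTHFD1L at -0.22 ± 0.04. GLDC went the other way, with 73.0, 70.0 and 69.5 CPM against 23.2, 24.7 and 26.4, and rose by 1.52 ± 0.05 (adjusted p = 9.33e-149). MTHFD2L was at 0.12 ± 0.12 and overlapped. The median of the members was -0.59, against -0.00074 over all genes tested, and GCSH did not pass with DESeq2 (adjusted p = 0.089). The wt fibroblast markers given above also varied within the wt libraries, and their part here was not tested.

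In cis cells the same drug left 4 members called, 1 higher and 3 lower (9.27% of all genes higher and 10.8% lower). SHMT1 had 48.9, 43.8 and 42.3 CPM with carboplatin, below the 53.5 to 55.5 of untreated cells, a log2 fold change of -0.27 ± 0.05 (adjusted p = 2.52e-04). MTHFD1 fell by 0.26 ± 0.03 on that scale, and ALDH1L2 was at -0.15 ± 0.03. MTHFD2 was called higher at 0.07 ± 0.02 (adjusted p = 0.046), and was not called with DESeq2, without a filter, with total counts or in a single fit over the 36 libraries. GLDC was at 0.08 ± 0.03 (adjusted p = 0.10).

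The interaction of line and carboplatin passed for 7 members, 6 higher and 1 lower in cis (30.3% of all genes higher and 27.2% lower). SHMT1 led with 1.56 ± 0.08 (adjusted p = 9.64e-26), and MTHFD2 at 0.66 ± 0.03, ALDH1L2 at 0.65 ± 0.04, MTHFD1 at 0.58 ± 0.04, SHMT2 at 0.54 ± 0.04 and MTHFD1L at 0.24 ± 0.06 followed. For GLDC the response was lower in cis, with -1.43 ± 0.06 (adjusted p = 5.71e-30). MTHFD2L at 0.01 ± 0.19 and GCSH at 0.44 ± 0.30 did not pass, and in the single fit over 36 libraries neither did ALDH1L2 (adjusted p = 0.17) and MTHFD1L (adjusted p = 0.11).

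In cis SSP cells carboplatin changed 2 members, GLDC higher and SHMT1 lower (1.97% of all genes higher and 0.749% lower). GLDC had 88.8, 89.2 and 87.8 CPM with carboplatin and 46.1, 46.2 and 47.5 without it, and rose by 0.96 ± 0.08 (adjusted p = 0.0057). SHMT1 was at -0.59 ± 0.11 (adjusted p = 0.043). Without library 25, 7 members were called, 3 higher and 4 lower (21.9% and 19.2% of all genes): GLDC rose by 0.94, MTHFD1L by 0.20 and MTHFD2 by 0.15, and ALDH1L2 was at -0.64, SHMT1 at -0.51, MTHFD1 at -0.41 and SHMT2 at -0.10. Leaving out any 1 of the carboplatin-treated libraries instead left 0 members called, and leaving out library 26 or 27 left 1.

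Carboplatin was also given without serine and glycine. In wt -SG cells 2 members rose and 6 fell (34.3% of all genes higher and 34.6% lower). SHMT1 had 11.8, 11.6 and 11.2 CPM with carboplatin and 45.0, 46.4 and 44.5 without it, at a log2 fold change of -1.97 ± 0.07 (adjusted p = 1.31e-08). ALDH1L2 was at -1.35 ± 0.08, MTHFD2 at -0.94 ± 0.05, SHMT2 at -0.82 ± 0.05, MTHFD1 at -0.78 ± 0.06 and MTHFD1L at -0.51 ± 0.06. GLDC rose by 1.61 ± 0.06 (adjusted p = 3.23e-08) and MTHFD2L by 0.70 ± 0.13 (adjusted p = 0.0012). Without library 11 the numbers of members called were again 2 and 6 (36.6% and 36.7% of all genes), and ALDH1L2 was at -1.25. The wt comparisons with carboplatin in both media use different libraries, and in each of them SHMT1 had the lowest and GLDC the highest log2 fold change of the 9.

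In cis -SG cells 0 members rose and 3 fell with carboplatin (10.9% of all genes higher and 11.6% lower): MTHFD1 at -0.28 ± 0.03 (adjusted p = 9.28e-05), MTHFD1L at -0.24 ± 0.03 (adjusted p = 2.66e-04) and SHMT1 at -0.20 ± 0.05 (adjusted p = 0.018). ALDH1L2 was at -0.01 ± 0.03, with overlapping libraries. Without libraries 23 and 24, which leaves 1 treated library that is assumed to vary like the untreated ones, 3 members were called, MTHFD1 at -0.27 and MTHFD1L at -0.20 lower and GLDC at 0.16 higher (7.61% and 6.91% of all genes), and SHMT1 at -0.22 did not pass (adjusted p = 0.058). Without library 22, the other treated library, 7 members were called, 2 higher and 5 lower (17.9% and 16.8% of all genes). In cis SSP -SG cells GLDC alone was called, higher by 0.88 ± 0.09 (adjusted p = 0.016; 1.17% of all genes higher and 0.295% lower), with 84.2, 84.4 and 87.1 CPM against 46.9, 43.98 and 49.1. Without library 32, 7 members were called (21.1% and 19.9% of all genes higher and lower), GLDC higher by 0.85 and 6 lower, from -0.92 for ALDH1L2 to -0.19 for SHMT1. Leaving out any other library of this comparison left 0 members called.

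The balance between the compartments was followed as the ratio of counts per kb within a library, which does not depend on library size. The mitochondrial SHMT2 exceeded the cytosolic SHMT1 in every library. The ratio was 7.38 in wt (range 7.36 to 7.41), 7.07 in cis (6.96 to 7.27) and 5.13 in cis SSP (4.82 to 5.64). It was higher without serine and glycine in all 3 lines, at 8.95 in wt -SG, 8.95 in cis -SG and 8.17 in cis SSP -SG, with no overlap with complete medium. In wt cells it was 17.4 with carboplatin (17.02 to 17.9) and 19.8 with carboplatin and without serine and glycine (19.1 to 20.3), which were the highest of the 12 conditions. Cis carbo was at 8.21, cis -SG carbo at 9.66, cis SSP carbo at 6.48 and cis SSP -SG carbo at 6.73, the last below its untreated counterpart and the others above theirs.

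MTHFD2 per kb of canonical transcript stood to MTHFD1 at ratios of 1.14 in wt, 1.17 in cis and 0.927 in cis SSP in complete medium, and at 2.42, 2.47 and 1.96 with the merged exons as the length, so whether these genes lay close together depended on the length chosen. The ratio was higher without serine and glycine, at 1.57, 1.68 and 1.74, again without overlap in any of the 3 lines, and was highest in cis -SG carbo at 1.94 (1.87 to 2.00). MTHFD1L lay below MTHFD1 in every library per kb of canonical transcript, and above it in all 12 conditions with the merged exons as the length, at 1.19 in cis SSP to 2.80 in cis -SG carbo, so the order of these genes is not settled. With the canonical length the ratio was 0.402 in wt, 0.374 in cis and 0.306 in cis SSP, and 0.481, 0.698 and 0.411 without serine and glycine. In cis SSP the media overlapped, where library 25 had 0.412 and library 32 had 0.532, the highest of their conditions. MTHFD2 per kb exceeded its close relative MTHFD2L from 16.8-fold in wt -SG carbo to 51.6-fold in wt -SG, or from 26.9-fold to 82.8-fold with the merged exons. A change of length multiplies a ratio by the same factor in every condition, so it leaves comparisons between conditions as they are. With 3 libraries against 3 the exact two-sided permutation test cannot go below p = 0.10, which 38 of the 52 ratio comparisons reached (Benjamini-Hochberg p = 0.137 for each), so none of them passed 0.05. How often ratios of other gene pairs lack overlap was not measured, so this count says nothing particular to these pairs.

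**Figure D5:**
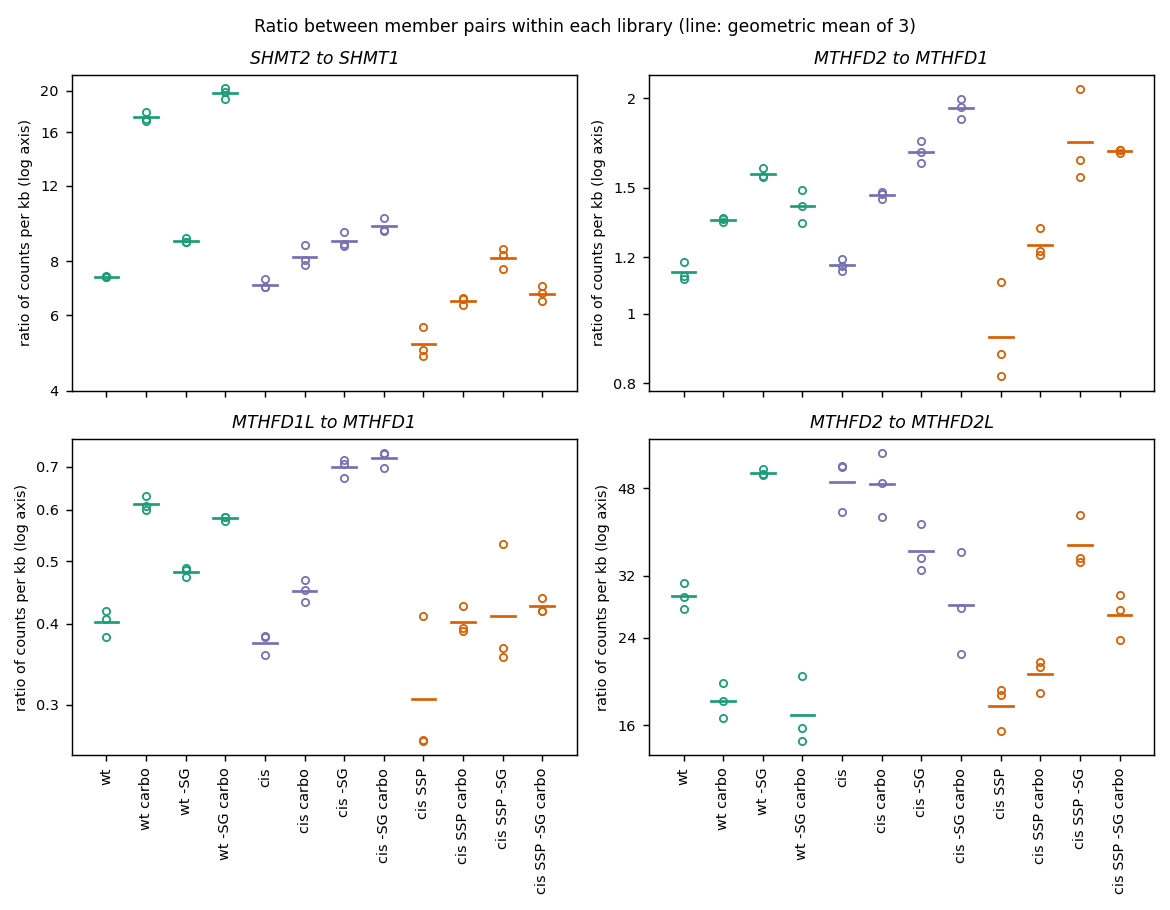
Each panel plots the ratio of counts per kb of 2 members within a library on a log axis for the 12 conditions, with a point for each library and a line at the geometric mean of 3. The SHMT2 to SHMT1 ratio is highest in wt carbo and wt -SG carbo, at 17.4 and 19.8, and the MTHFD2 to MTHFD1 ratio lies above complete medium in each line without serine and glycine.

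Of 22 other folate genes on a list of enzymes, carriers and receptors, 16 to 18 had enough counts to be tested, and ALDH1L1, FOLR1, FOLR2 and SLC46A1 were never among them. In cis against wt, 7 of 16 were higher and 5 lower, beside 39.4% and 39.1% of all genes. GGH, the gamma-glutamyl hydrolase that shortens folate chains, was higher by 1.49 ± 0.05 and SLC19A1, the reduced folate carrier, by 0.87 ± 0.06, while TYMS, thymidylate synthase, was at -0.55 ± 0.03. In cis cells without serine and glycine 6 of 18 rose and 11 fell (37.6% and 37.4% of all genes). AMT, the aminomethyltransferase of the glycine cleavage complex, rose by 1.72 ± 0.13 (adjusted p = 1.96e-16) while its partner GLDC fell, and SARDH, sarcosine dehydrogenase, was at -1.37 ± 0.09. In wt cells 3 of 16 rose and 8 fell (24.1% and 25.1% of all genes), with AMT again higher by 0.66 ± 0.15 and GGH at -0.49 ± 0.06. With carboplatin 1 of 16 rose and 12 fell in wt cells (38.9% and 39.0% of all genes). The 1 that rose was SLC25A32, the mitochondrial folate carrier, by 0.40 ± 0.03, and GGH was at -1.24 ± 0.07. In cis cells 0 of 16 rose and 4 fell (9.27% and 10.8% of all genes), TYMS at -0.18 ± 0.03 among them. The interaction of line and carboplatin passed for 11 of 16, 10 of them higher and 1 lower in cis (30.3% and 27.2% of all genes), with GGH at 1.08 ± 0.08. In cis SSP cells 0 of 16 passed for deprivation or for carboplatin in either medium with all libraries in, beside 0.0218% of all genes higher and 0% lower for deprivation, 1.97% and 0.749% for carboplatin in complete medium, and 1.17% and 0.295% for carboplatin without serine and glycine.

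Members resembled each other within and between compartments. Over the 12 condition means of log2 CPM, Pearson's r was 0.94 between SHMT1 and MTHFD1, 0.91 between MTHFD1L and ALDH1L2, 0.85 between SHMT1 and SHMT2, 0.80 between MTHFD1 and SHMT2 and 0.80 between MTHFD2 and MTHFD1L. GLDC had an r between -0.31 and 0.20 with each other member. These values describe 12 means that share lines and treatments, and no test was made. Among 9450 genes with a mean of at least 10 CPM, SHMT1 was most like NDC80, a kinetochore gene, YIF1B and OSGEPL1 (r = 0.99 for each). MTHFD1 was most like SORBS3 (r = 0.99) and CHEK1, a checkpoint kinase (r = 0.98). RFC4, a subunit of the clamp loader of DNA replication, came next for MTHFD1 (r = 0.98). MTHFD2 was most like SLC1A5, a neutral amino acid transporter (r = 0.97), PSPH, the last enzyme of serine synthesis (r = 0.97), and GPT2, a mitochondrial alanine aminotransferase (r = 0.96). MTHFD1L was closest to SLC39A14 (r = 0.98) and TRIB3, a pseudokinase (r = 0.98), and ALDH1L2 to HLCS (r = 0.97), PKD1 (r = 0.96) and CEBPG, a C/EBP family factor (r = 0.96). For SHMT2 the highest r was 0.93, with UTP18, for GLDC it was 0.98, with ANKRD42, and for MTHFD2L and GCSH it was 0.94 and 0.90, with KRT10-AS1 and SMIM20.

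The strand setting of the counting is not given in the sources used here, and exons of some members overlap genes on the other strand: SHMT1 with SMCR8 (mean 1022 counts per library), ALDH1L2 with WASHC4 (1662) and NOPCHAP1 (368), MTHFD1 with ZBTB25 (309) and SHMT2 with NDUFA4L2 (54.7). Reads in such overlaps cannot be told apart without strand. Exons of GCSH also overlap 2 protein-coding genes on the same strand, ENSG00000260643 (3.17) and ENSG00000284512, which was not analysed here, and a strand setting would not separate those. Pseudogenes held at most 0.0845% of the counts of a member for 8 of them and 3.44% for GCSH, which has 6, so GCSH is the least certain of the 9.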

How the data were processed

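The authors mapped the RNA-seq reads to GRCh37.p13 with STAR, counted them per gene with HTSeq and deposited raw counts for 57820 Ensembl genes in 36 libraries. Whether counting used strand is not given in the sources used here. Total counts ran from 13074937 to 20441582. The 3 summary entries that name no gene were left out of library sizes, and 0 columns belonged to no sample. For each comparison, counts of the conditions concerned were filtered with filterByExpr, TMM-normalized and tested with edgeR 4.0.16 (R 4.3.3) by the quasi-likelihood test, two-sided, with Benjamini-Hochberg adjustment over all genes tested. Interaction terms used 4 conditions. Scripts were tested on simulated data with known changes. For cis vs wt, changes of 0.5 on the log2 scale were recovered for 88 of 98 genes at a dispersion of 0.001 and 9 of 95 at 0.03. For the interaction of deprivation, cis minus wt, these numbers were 77 of 100 and 1 of 101. Changes of 1 in that interaction were recovered for 97 of 100 and 32 of 99. A member not called where libraries varied widely may therefore still have changed. Alternatives were DESeq2 1.42.0, its size factors, total counts, other filters, a single fit over 36 libraries, a length trend removed, a fold threshold and libraries left out. Ratios of counts per kb were compared by exact permutation tests (scipy 1.17.1). All members were named in every comparison; other folate genes were named if they were among the 2 called ones with the largest change per direction at a mean of at least 50 counts, and like genes if among the 3 highest Pearson r. Some genes of that list are not reported here. The members and lists were chosen with earlier results of these data known.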

Additional observations from a re-analysis of the deposited data

Results flagged for a closer look

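Of 27 interaction terms tested for the 9 members, 19 passed at an adjusted p under 0.05 by edgeR's quasi-likelihood test. Over all genes, higher and lower, 27.1% and 26.9% passed for deprivation in cis minus wt, 6.86% and 10.3% for deprivation in cis SSP minus cis, and 30.3% and 27.2% for carboplatin in cis minus wt, so the count alone says nothing particular to the members. The response to removal of serine and glycine, as cis minus wt on the log2 scale, was -0.75 for SHMT1, -0.69 for SHMT2, -0.18 for MTHFD1 and -0.11 for MTHFD2, and 1.19 for MTHFD2L, 0.88 for ALDH1L2 and 0.46 for MTHFD1L. As cis SSP minus cis, the difference between the media was 1.02 for SHMT2, 0.74 for MTHFD2, 0.70 for SHMT1 and 0.42 for GLDC, and -0.79 for MTHFD2L. Cis SSP cells had already grown out without serine and glycine, so this does not compare like exposures. The response to carboplatin in complete medium, as cis minus wt, was 1.56 for SHMT1, 0.66 for MTHFD2, 0.65 for ALDH1L2, 0.58 for MTHFD1, 0.54 for SHMT2 and 0.24 for MTHFD1L, and -1.43 for GLDC. These interactions share the cis libraries.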

How the results depend on the processing

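Of 1035 log2 fold changes of members under alternatives other than leaving out a library, 947 kept their direction and their side of the threshold, 28 no longer passed, 38 newly passed and 22 changed sign. Of 1026 with 1 library left out, these numbers were 933, 39, 26 and 28. The 312 differences of compartment ratios with a library left out were set against the SD between libraries, combined over both conditions. Leaving out 1 of 3 libraries cannot move a mean by that much, so nothing is drawn from this check. Direction was checked only where the libraries of the conditions did not overlap, and there leaving out 1 library cannot change it. With a log2 fold change of 1 or more in size also required, the number of members called became 1 in place of 8 in cis vs wt, 2 in place of 4 in cis SSP vs cis, 1 in place of 8 in cis -SG vs wt -SG, 1 in place of 5 in cis SSP -SG vs cis -SG, 0 in place of 7 in wt -SG vs wt, 1 in place of 8 in cis -SG vs cis, 2 in place of 8 in wt carbo vs wt, 0 in place of 4 in cis carbo vs cis, 0 in place of 2 in cis SSP carbo vs cis SSP, 3 in place of 8 in wt -SG carbo vs wt -SG, 0 in place of 3 in cis -SG carbo vs cis -SG, 0 in place of 1 in cis SSP -SG carbo vs cis SSP -SG, 1 in place of 7 in deprivation response (cis minus wt), 1 in place of 5 in deprivation response (cis SSP minus cis) and 2 in place of 7 in carboplatin response (cis minus wt). In a single fit over the 36 libraries, the number of members called became 7 in place of 4 in cis SSP vs cis, 8 in place of 5 in cis SSP -SG vs cis -SG, 3 in place of 7 in wt -SG vs wt, 4 in place of 0 in cis SSP -SG vs cis SSP, 2 in place of 4 in cis carbo vs cis, 4 in place of 2 in cis SSP carbo vs cis SSP and 7 in place of 1 in cis SSP -SG carbo vs cis SSP -SG. With DESeq2, the number of members called became 1 in place of 0 in cis SSP -SG vs cis SSP and 3 in place of 1 in cis SSP -SG carbo vs cis SSP -SG. Without libraries 25 and 32, the number of members called became 5 in place of 0 in cis SSP -SG vs cis SSP. Without a filter on low counts, the number of members called became 1 in place of 2 in cis SSP carbo vs cis SSP and 3 in place of 5 in deprivation response (cis SSP minus cis). With the trend over transcript length removed, the number of members called became 2 in place of 1 in cis SSP -SG carbo vs cis SSP -SG. When single libraries were dropped in turn, the number called ran from 7 to 8 in cis vs wt, 2 to 8 in cis SSP vs cis, 8 to 8 in cis -SG vs wt -SG, 4 to 8 in cis SSP -SG vs cis -SG, 6 to 7 in wt -SG vs wt, 8 to 9 in cis -SG vs cis, 0 to 0 in cis SSP -SG vs cis SSP, 8 to 8 in wt carbo vs wt, 3 to 4 in cis carbo vs cis, 0 to 7 in cis SSP carbo vs cis SSP, 8 to 8 in wt -SG carbo vs wt -SG, 2 to 7 in cis -SG carbo vs cis -SG, 0 to 7 in cis SSP -SG carbo vs cis SSP -SG, 7 to 7 in deprivation response (cis minus wt), 4 to 6 in deprivation response (cis SSP minus cis) and 7 to 7 in carboplatin response (cis minus wt). The highest numbers in the cis SSP comparisons came without library 25 or 32, and the highest in cis -SG carbo vs cis -SG without library 22. Removal of libraries 23 and 24 together and the merged exon length for ratios were chosen after the data were seen. Each value that changed sign belonged to a member that had not passed, and the cause was not tested. With the trend over transcript length removed, the log2 fold change was 0.12 for MTHFD1 in cis SSP vs cis, -0.00959 for GLDC in cis SSP -SG vs cis SSP, 0.00613 for GCSH in cis SSP -SG vs cis SSP, -0.0141 for MTHFD2 in cis SSP carbo vs cis SSP, -0.00278 for MTHFD2L in cis SSP -SG carbo vs cis SSP -SG and -0.0198 for MTHFD2L in carboplatin response (cis minus wt). With total counts without TMM, the log2 fold change was -0.0114 for MTHFD1 in cis SSP -SG vs cis SSP, -0.055 for GLDC in cis SSP -SG vs cis SSP, 0.021 for ALDH1L2 in cis -SG carbo vs cis -SG and -0.0776 for ALDH1L2 in deprivation response (cis SSP minus cis). With DESeq2, the log2 fold change was 0.00894 for GCSH in cis SSP -SG vs cis SSP and -0.0231 for MTHFD2L in carboplatin response (cis minus wt). With DESeq2 size factors in edgeR, the log2 fold change was 0.00454 for GCSH in cis SSP -SG vs cis SSP and -0.0116 for MTHFD2L in carboplatin response (cis minus wt). Without a filter on low counts, the log2 fold change was 0.00686 for GCSH in cis SSP -SG vs cis SSP and -0.0017 for MTHFD1L in cis carbo vs cis. In a single fit over the 36 libraries, the log2 fold change was -0.000813 for MTHFD1L in cis carbo vs cis and -0.0139 for MTHFD2L in carboplatin response (cis minus wt). Without libraries 23 and 24, the log2 fold change was -0.0594 for MTHFD2L in cis -SG carbo vs cis -SG and -0.42 for GCSH in cis -SG carbo vs cis -SG. With at least 10 counts required in every library, the log2 fold change was -0.0299 for ALDH1L2 in deprivation response (cis SSP minus cis) and -0.00331 for MTHFD2L in carboplatin response (cis minus wt). With 1 library left out, the changed signs lay within ranges from -0.0595 to 0.17 for MTHFD1 in cis SSP -SG vs cis SSP, -0.0386 to 0.0737 for GLDC in cis SSP -SG vs cis SSP, -0.25 to 0.15 for GCSH in cis SSP -SG vs cis SSP, -0.0373 to 0.0519 for MTHFD1L in cis carbo vs cis, -0.00293 to 0.21 for MTHFD2L in cis carbo vs cis, -0.34 to 0.0179 for GCSH in cis carbo vs cis, -0.15 to 0.023 for MTHFD2L in cis SSP carbo vs cis SSP, -0.0367 to 0.00927 for ALDH1L2 in cis -SG carbo vs cis -SG, -0.0203 to 0.17 for MTHFD2L in cis SSP -SG carbo vs cis SSP -SG, -0.26 to 0.0606 for GCSH in deprivation response (cis minus wt), -0.20 to 0.000165 for MTHFD1L in deprivation response (cis SSP minus cis), -0.29 to 0.38 for ALDH1L2 in deprivation response (cis SSP minus cis) and -0.13 to 0.11 for MTHFD2L in carboplatin response (cis minus wt). No paired analysis was possible because libraries carry running numbers and no number is shared between conditions.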
